A study of Drosophila melanogaster with 46 samples.

Results

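Small RNAs in the immunoprecipitate of CG9754, also called Silencio, were compared with the small RNAs of the input. The cells were ovarian somatic cells (OSC) of Drosophila melanogaster, a line kept in culture that derives from the follicle cells of the ovary. The comparison covers all 124 transposable elements (TEs) of the deposited table, each on its sense and its antisense strand, in 4 of the 46 samples of the series. These are 2 libraries of the CG9754 immunoprecipitate (CG9754-IP) and 2 libraries of the input (Input). The labels give the genotype or variation of the precipitates as CG9754-IP and that of the inputs as none. All samples of the series carry 1 treatment text, on siRNA transfection and analysis on a later day, and no siRNA is named for these 4 libraries. The antibody or tag used for the precipitate is not given in the sources used here. The table also holds 2 Piwi-IP libraries, whose values stand beside some results, and the libraries used here include no mock precipitate. The labels do not say whether the 2 libraries of a group are from different cultures, so every p-value measures only the spread between these libraries, which may be technical. A table of TEs holds no marker genes, so the cell type could not be checked.

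PIWI-interacting RNAs (piRNAs) are small RNAs that guide Piwi proteins to transposon transcripts by base pairing, and those that pair with the transcript of a TE are antisense to it. In follicle cells the nuclear protein Piwi carries piRNAs from clusters such as flamenco, which holds many LTR retrotransposon fragments in antisense, and directs transcriptional silencing of TEs. CG9754 acts downstream of Piwi in this silencing, and the title of the series places it between the Piwi-piRNA complex and the heterochromatin machinery. The comparison asks which TE small RNAs were found in the precipitate of this protein, and how their levels differ from those of the input.

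The values are RPM, each library being scaled to 1000000 reads, which is each TE's share of its library and not an absolute amount. A precipitate that holds less of all small RNAs and one that holds other small RNAs in place of TE small RNAs cannot be told apart on this scale. The totals behind the scaling were 26138400 and 19874200 reads in CG9754-IP, and 18861900 and 15327200 reads in Input. A count of 0 allowed up to 0.115 and 0.151 RPM in CG9754-IP, against 0.159 and 0.196 RPM in Input, for counting error only. No TE sequences were available here, and none are shown.

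The CG9754 precipitate held small RNAs from both strands, mostly antisense, with a larger sense share than the input. Without a mock precipitate, whether CG9754 itself held them was not tested. Over both strands the TE sum was 196804 ± 4830 RPM in CG9754-IP and 223786 ± 110 RPM in Input. In Piwi-IP it was 250570 ± 1705 RPM (SD, n = 2 each). Summed over the 124 TEs, antisense small RNAs reached 181254 and 175180 RPM in CG9754-IP, against 211663 and 211337 RPM in Input. The mean was 178217 ± 4295 RPM in CG9754-IP and 211500 ± 231 RPM in Input (SD, n = 2 each), a change of −15.7%, and both precipitates lay below both inputs. Sense small RNAs summed to 18965 and 18208 RPM in CG9754-IP, against 12201 and 12371 RPM in Input. Their mean was 18587 ± 535 RPM in CG9754-IP and 12286 ± 121 RPM in Input (SD, n = 2 each), 1.51 times as high in the precipitate, and the groups did not overlap. With 2 libraries against 2, a two-sided exact permutation test cannot go below p = 0.333. The antisense sum, the sense sum and the sum over both strands gave that value for CG9754-IP against Input.

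The antisense strand made up 90.5% and 90.6% of TE small RNAs in CG9754-IP, against 94.5% and 94.5% in Input. The Wilson 95% intervals were 90.50% to 90.55% and 90.56% to 90.61% in CG9754-IP, against 94.53% to 94.57% and 94.45% to 94.49% in Input. They reflect counting error alone, because reads that carry no molecular identifier need not be separate molecules. The 2 Piwi-IP libraries, at 94.75% ± 0.016 (SD, n = 2), were close to Input in this share. The exact permutation p for CG9754-IP against Input was 0.333, the smallest that 2 against 2 libraries can give.

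**Figure D1:**
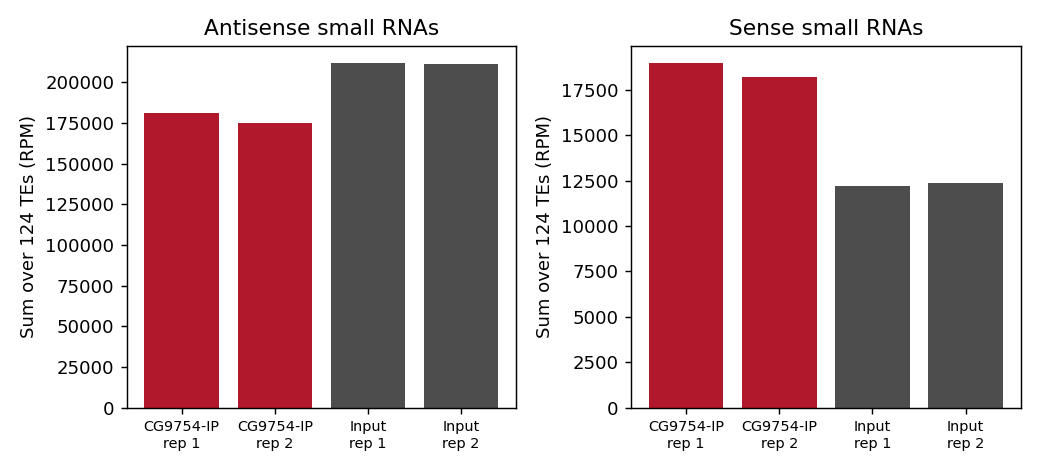
Summed small RNAs of 124 TEs on the antisense (left) and sense (right) strand, in RPM, with 1 bar for each library of CG9754-IP and Input. The antisense bars of CG9754-IP are lower (181254 and 175180 RPM) than those of Input (211663 and 211337 RPM), and the sense bars are higher (18965 and 18208 RPM against 12201 and 12371 RPM).

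A few TEs carried both net differences. On the antisense strand the losses over TEs added up to −42309 RPM and the gains to 9026 RPM, CG9754-IP minus Input. The largest losses were those of the LTR retrotransposons 412 (−8969 RPM), mdg1 (−6954 RPM), rover (−6347 RPM) and Idefix (−3862 RPM), and the largest gain was that of the endogenous retrovirus gypsy (4097 RPM). On the sense strand the gains added up to 7065 RPM and the losses to −764 RPM. Springer, a gypsy-superfamily LTR retrotransposon, alone gained 3782 RPM of sense small RNAs, which is 60.0% of the net sense difference, and gypsy (666 RPM) and copia (663 RPM) followed.

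The 2 CG9754-IP libraries differed from each other more than the 2 Input libraries did. Over the 74 TEs tested on the antisense strand, the median size of the log2 ratio between replicates was 0.22 in CG9754-IP and 0.034 in Input. It was above 0.5 for 9 TEs in CG9754-IP and for 1 in Input. On the sense strand, with 54 TEs tested, the median was 0.26 in CG9754-IP and 0.091 in Input, with 6 TEs above 0.5 in CG9754-IP and 0 in Input. Against counting error alone, the chi-square per degree of freedom between replicates on the antisense strand was 480.4 in CG9754-IP and 11.2 in Input, over 120 TEs each. CG9754-IP replicate 1 was the higher of the pair for 50 of the 74 antisense TEs and for 39 of the 54 sense TEs.

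The largest replicate differences on the antisense strand were those of 5 TEs. Invader2, an LTR retrotransposon of the gypsy superfamily, stood at 118.1 and 32.0 RPM in CG9754-IP, against 46.9 and 51.4 RPM in Input. The LTR element GATE measured 60.9 and 25.8 RPM in CG9754-IP, against 54.2 and 58.6 RPM in Input. Roo, the most abundant BEL/Pao retrotransposon, lay at 2523 and 1260 RPM in CG9754-IP, against 1642 and 1600 RPM in Input. In each of these, replicate 1 lay above both inputs and replicate 2 below both, and none was called (adjusted p = 0.706, 0.438 and 0.758 with limma). Without replicate 1 the log2 change of roo was −0.36 and without replicate 2 it was 0.64, and for invader2 these values were −0.60 and 1.25, so that their direction rested on 1 library. The gypsy-group element Tirant, at 12.8 and 25.5 RPM in CG9754-IP against 29.2 and 41.2 RPM in Input, was low in both precipitates and was not called (adjusted p = 0.160 with limma). The DNA transposon transib4, at 10.3 and 5.48 RPM in CG9754-IP against 13.5 and 13.7 RPM in Input, was not called either (adjusted p = 0.134), and it was tested through its Input level, so that it had to be low in the precipitates.

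As a description across the 124 TEs, on log2(RPM + 1), the antisense profiles of the CG9754-IP libraries had a Pearson r of 0.995 with each other, and of 0.988 to 0.992 with the Input libraries. On the sense strand the CG9754-IP libraries had an r of 0.992 with each other, and of 0.927 to 0.938 with Input. The Input libraries had an r of 0.999 with each other on the antisense and 0.998 on the sense strand. Over the 54 TEs tested on the sense strand alone, the r of CG9754-IP with Input was 0.796 to 0.820. TEs differ over several orders of magnitude and the libraries share the same annotation, so r over all TEs is high for any pair.

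**Figure D2:**
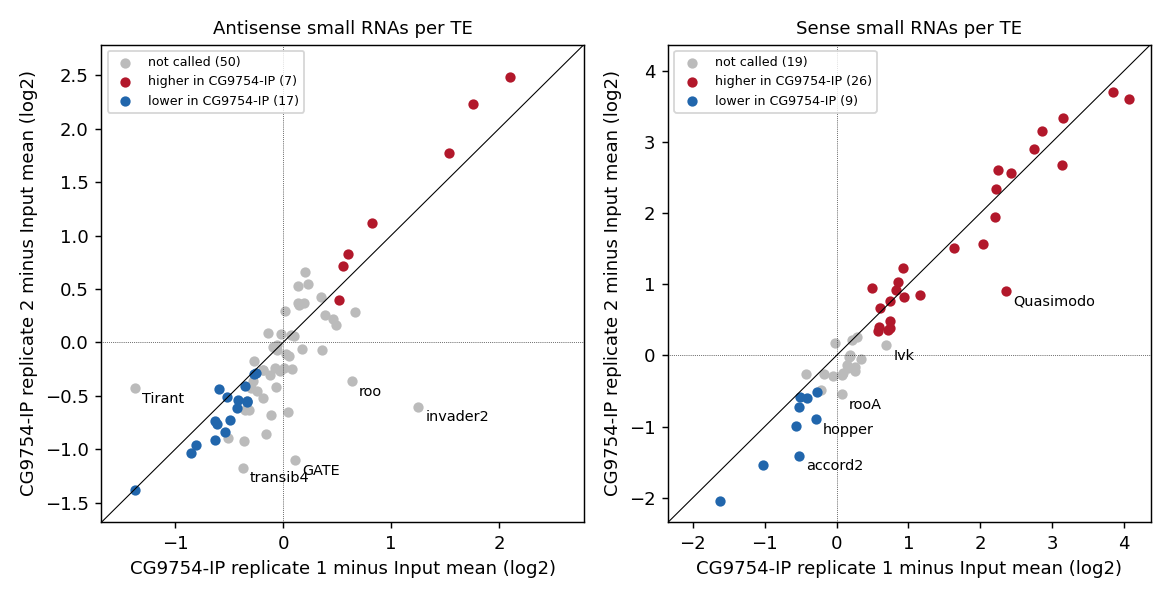
Log2 change against the Input mean for CG9754-IP replicate 1 and replicate 2, with 1 point for each TE tested, on the antisense (74 TEs) and sense (54 TEs) strand. The sense points reach above 3 on both axes, while invader2 and roo on the antisense strand have replicate 1 above and replicate 2 below the Input mean.

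Levels were compared with limma on log2(RPM + 1), two-sided, with Benjamini-Hochberg adjustment over all TEs tested on a strand and a threshold of 0.05. The test took TEs whose mean over the 4 libraries reached 10 RPM. Log2 changes are those of CG9754-IP over Input on this scale, with their standard error (SE), and they understate the change of low TEs. On the antisense strand 24 of 74 TEs (32.4%) were called, 7 higher (9.46%) and 17 lower (23.0%) in CG9754-IP. The groups did not overlap for 19 tested TEs above Input (25.7%) and 40 below (54.1%). The median log2 change was −0.18, with −0.07 for replicate 1 and −0.26 for replicate 2. When the libraries were scaled to equal TE totals the median was 0.00 and 22 TEs were called, 12 higher and 10 lower, with 17 TEs shared by both counts. With libraries scaled by their median ratio over the TEs, 9 were higher and 19 lower, so the excess of lower calls depended on the scaling. On the RPM scale a change below about −0.18 is a fall relative to the other TEs. Without either 1 of the Input libraries limma called 0 TEs (15 and 13 at an unadjusted p under 0.05), and without CG9754-IP replicate 1 or 2 it called 61 and 51. In these last fits the spread comes from the close Input pair alone.

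Copia and springer had by far the largest antisense rises. Antisense copia, the type element of the Copia superfamily of LTR retrotransposons, reached 452.6 and 590.3 RPM in CG9754-IP, against 102.7 and 106.7 RPM in Input. The log2 change was 2.29 (SE 0.15, adjusted p = 0.00917 with limma). Antisense springer stood at 1905 and 2634 RPM in CG9754-IP, against 549 and 575 RPM in Input, with a log2 change of 1.99 (SE 0.18, adjusted p = 0.00967 with limma). For both TEs each precipitate was above both inputs, and the Piwi-IP libraries, at 97.0 ± 4.43 RPM for copia and 553 ± 25 RPM for springer (SD, n = 2 each), were near the inputs. Both calls were kept after rescaling, and both were lost without either 1 of the Input libraries (adjusted p = 0.0506 to 0.0743 with limma).

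The other 5 antisense rises were those of less abundant elements. DNAREP1 (Repbase_DNAREP1 in the table), a short non-autonomous DNA element, measured 19.5 and 23.1 RPM in CG9754-IP, against 6.63 and 5.55 RPM in Input (log2 change 1.65, adjusted p = 0.00967 with limma). It passed the filter on low values only through its level in CG9754-IP, so that it had to be higher there. The LINE retrotransposon G2 lay at 59.95 and 73.7 RPM in CG9754-IP, against 33.5 and 33.3 RPM in Input (0.97, adjusted p = 0.0195). The copia-type element 1731 reached 22.8 and 26.9 RPM in CG9754-IP, against 15.6 and 13.8 RPM in Input (0.72, adjusted p = 0.0367). Smaller rises were called for Dsim_ninja, an element first described in D. simulans (0.63, adjusted p = 0.0289), and for the R1-clade LINE Rt1b, Repbase_Rt1b in the table (0.46, adjusted p = 0.0453). None of these overlapped between the groups, and all 5 calls were lost without either 1 of the Input libraries.

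Of the 17 antisense falls, 3 were those of LINE elements (Juan, Helena and Ivk). The LTR retrotransposon mdg3 stood at 147.2 and 146.1 RPM in CG9754-IP, against 382.5 and 381.3 RPM in Input. Its log2 change of −1.37 (SE 0.054, adjusted p = 0.00271 with limma) was the largest antisense fall, and the replicates agreed closely in both groups. The copia-type element Dm88 fell to 86.96 and 76.5 RPM in CG9754-IP, against 158.6 and 156.2 RPM in Input (−0.94, adjusted p = 0.00967).

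Among the gypsy-group elements, rover fell to 7911 and 7130 RPM in CG9754-IP, against 13901 and 13834 RPM in Input (−0.88, adjusted p = 0.00967 with limma). Idefix, an LTR element with a retroviral envelope gene that flamenco is known to repress, measured 6106 and 5026 RPM in CG9754-IP, against 9417 and 9440 RPM in Input (−0.77, adjusted p = 0.0289). The element 17.6 lay at 4461 and 4019 RPM in CG9754-IP, against 6859 and 6763 RPM in Input (−0.69, adjusted p = 0.0128). Quasimodo fell as well, to 2150 and 1754 RPM in CG9754-IP against 3085 and 3173 RPM in Input (−0.69, adjusted p = 0.0289). In all 4, both precipitates lay below both inputs, and all 4 calls were kept at equal TE totals, with log2 changes between −0.70 and −0.50. ZAM, another target of flamenco, reached 1931 and 2161 RPM in CG9754-IP, against 3028 and 2802 RPM in Input (−0.51, adjusted p = 0.0289), and lost the call after that rescaling (−0.33, adjusted p = 0.0854) and after scaling by the median ratio.

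Mdg1, a retrotransposon without an envelope gene, stood at 14432 and 12275 RPM in CG9754-IP, against 20355 and 20260 RPM in Input (−0.61, adjusted p = 0.0289 with limma). The related element 412, the most abundant antisense TE of Input, measured 27163 and 23497 RPM in CG9754-IP, against 33926 and 34672 RPM in Input (−0.44, adjusted p = 0.0453). Its groups did not overlap, and at equal TE totals the call was lost (−0.26, adjusted p = 0.0854). Gypsy5 lay at 7028 and 6199 RPM in CG9754-IP, against 9372 and 9545 RPM in Input (−0.52, adjusted p = 0.0289). The LINE elements Juan, at 177 and 165 RPM in CG9754-IP against 272 and 277 RPM in Input (−0.68, adjusted p = 0.00967), and Helena, at 489 and 494 RPM in CG9754-IP against 699 and 706 RPM in Input (−0.52, adjusted p = 0.00982), fell too. All antisense calls named here were lost without either 1 of the Input libraries, with the lowest values for mdg3 and copia (adjusted p = 0.0549 and 0.0506 for both).

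**Figure D3:**
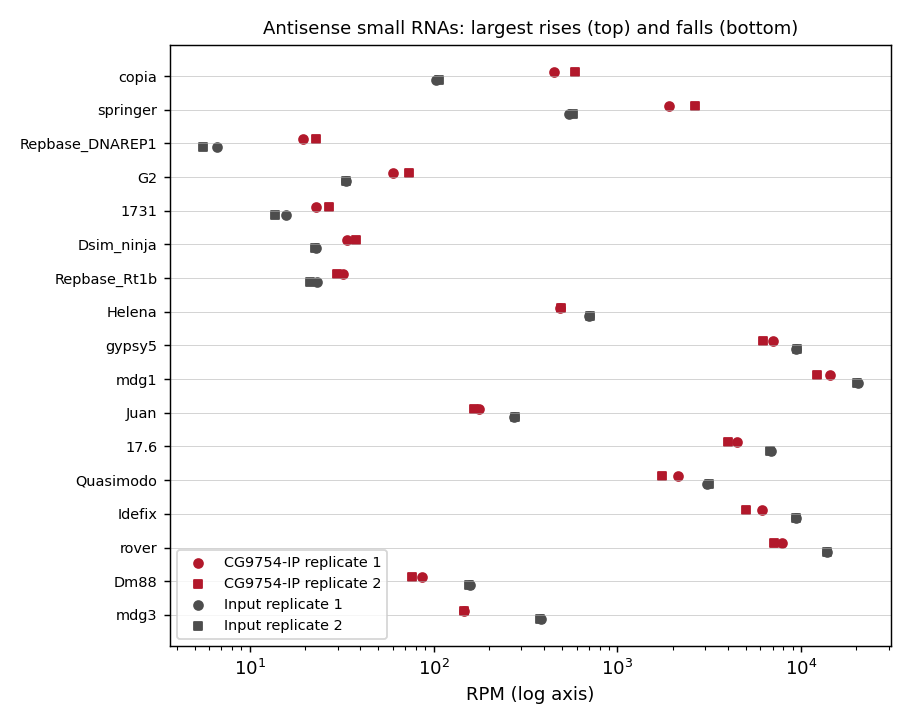
Antisense small RNA levels (RPM, log axis) of the TEs with the largest called rises (top) and falls (bottom), with 1 marker for each of the 2 CG9754-IP and 2 Input libraries. The groups do not overlap for any of them, and copia and springer are farthest apart among the rises and mdg3 among the falls.

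Other abundant antisense TEs did not pass. Gtwin, an endogenous retrovirus of the gypsy group, reached 29622 and 31796 RPM in CG9754-IP, against 30356 and 29723 RPM in Input. The groups overlapped, with a log2 change of 0.03 (SE 0.069, adjusted p = 0.706 with limma), and the sign turned without CG9754-IP replicate 2 (−0.020). With 412 lower, gtwin was the most abundant antisense TE of CG9754-IP, at 16.3% and 18.2% of the strand. Gypsy stood at 15292 and 19026 RPM in CG9754-IP, against 13132 and 12993 RPM in Input (0.38, SE 0.13, adjusted p = 0.104). Both precipitates were above both inputs, and gypsy passed as higher at equal TE totals (0.57, adjusted p = 0.04698). The element 297, at 1874 and 1613 RPM in CG9754-IP against 2232 and 2188 RPM in Input (−0.35, adjusted p = 0.0760), was below Input in both libraries but missed the threshold, like the I-element, a LINE of hybrid dysgenesis, at 55.4 and 37.4 RPM in CG9754-IP against 74.3 and 68.9 RPM in Input (−0.64, adjusted p = 0.104). Stalker (−0.35, adjusted p = 0.124), Stalker4 (−0.47, adjusted p = 0.0752) and gypsy2 (−0.05, adjusted p = 0.517; 0.14 at equal TE totals) did not pass either, and Stalker and Stalker4 may share reads. Scaled by the median ratio, 297 and Stalker4 passed as lower.

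Over all TEs tested on the antisense strand 9.46% rose and 23.0% fell, and the lists are given beside these shares. Of 14 tested members of the gypsy-group list, 1 rose (springer) and 6 fell. Their median log2 change was −0.41, against −0.18 over all TEs tested. At equal TE totals 3 rose and 4 fell, with a median of −0.23. Of 7 tested members of the mdg1 and mdg3 list, 0 rose and 4 fell. Their median was −0.45, and after rescaling 2 fell, at a median of −0.26. Over all 8 members of that list in the table, tested or not, 7 were below Input in both precipitates and 0 were above, where over all TEs 44.4% and 22.6% were.

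In the other lists the shares called were mostly near those over all TEs, or rested on 3 to 7 TEs. Of 7 numbered gypsy elements, 0 rose and 2 fell (median −0.03, and 0.16 after rescaling). Of 18 LINE elements outside the telomeric list, 2 rose and 3 fell (median −0.22 and −0.04). Of 3 copia-type elements, 2 rose and 1 fell with either scaling. The invader and accord2 list (4 tested) and the BEL/Pao list (4 tested) held 0 calls at medians of 0.20 and −0.19, and 0.38 and −0.01 after rescaling. Of 7 DNA transposons and foldback elements 1 rose (DNAREP1), or 3 after rescaling, where the median moved to 0.03 instead of −0.15.

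Of the telomeric LINE elements, which lengthen chromosome ends in Drosophila, the 3 TART elements were tested on the antisense strand and 0 were called. TART-C measured 1488 and 1313 RPM in CG9754-IP, against 1638 and 1606 RPM in Input (−0.21, adjusted p = 0.130 with limma), and TART-A and TART-B had log2 changes of −0.16 and −0.06. All 3 were below Input in both precipitates. Their median was −0.16, and 0.03 after rescaling. HeT-A and TAHRE, the telomeric elements that are most active in the germline, were below the filter. HeT-A lay at 5.55 and 4.58 RPM in CG9754-IP, against 2.12 and 2.74 RPM in Input, and TAHRE reached 4.67 and 4.43 RPM in CG9754-IP, against 1.17 and 1.57 RPM in Input. Both were low in all 4 libraries and above Input in both precipitates.

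Sense small RNAs, which match the TE transcript itself, were called more often than antisense ones, in a fit that estimated the spread differently. Of 54 TEs tested, 35 (64.8%) were called, 26 higher (48.1%) and 9 lower (16.7%) in CG9754-IP, with a median log2 change of 0.34. It was 0.42 for replicate 1 and 0.24 for replicate 2. The groups did not overlap for 29 tested TEs above Input (53.7%) and 13 below (24.1%). Over all 124 TEs, tested or not, both precipitates were above both inputs for 52 (41.9%) and below both for 25 (20.2%). The filter bears on these counts: 7 TEs with an Input mean under 10 RPM were tested through their CG9754-IP level and so had to be higher, namely 412, FB, gtwin, gypsy4, HMS-Beagle, HMS-Beagle2 and rover. With the minimum set on Input alone, 19 of 48 TEs were called higher and 9 lower, with a median of 0.10. At equal TE totals 29 were higher and 7 lower, at a median of 0.52. Without either 1 of the Input libraries the counts were 19 higher and 3 lower. Limma estimated 1 common trend of the spread for the sense strand. The p of a sense TE thus rests on the trend over 54 TEs and not on its own replicates. The fit had 108 total degrees of freedom on the sense and 3.56 on the antisense strand, so the shares called cannot be compared between strands. Without overlap, 53.7% of sense TEs tested lay above Input and 24.1% below, against 25.7% and 54.1% on the antisense strand.

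Sense gypsy, the envelope-bearing retrovirus that flamenco represses in follicle cells, stood at 696 and 790 RPM in CG9754-IP, against 73.7 and 80.6 RPM in Input. The log2 change was 3.25 (SE 0.15, adjusted p = 8.4e-39 with limma), with both precipitates far above both inputs. Sense mdg1 measured 173 and 156 RPM in CG9754-IP, against 10.8 and 11.3 RPM in Input (3.78, SE 0.20, adjusted p = 3.1e-35). The largest rise was that of sense 412, at 79.2 and 57.3 RPM in CG9754-IP against 3.71 and 3.85 RPM in Input (3.84, SE 0.24, adjusted p = 1.2e-29). As 412 was tested through its CG9754-IP level, it had to be higher there. These 3 TEs had 67.6 ± 3.17, 12.4 ± 0.42 and 3.58 ± 0.19 RPM in Piwi-IP (SD, n = 2 each), all near Input. Mdg1 fell on the antisense strand, so that in CG9754-IP its strands changed in opposite directions. Antisense 412 was called lower too, but that call was lost at equal TE totals. Because of the filter, its sense level cannot show a change in the opposite direction.

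Further sense rises came from relatives of these elements. Blood, a member of the mdg1 group, lay at 184 and 133 RPM in CG9754-IP, against 21.5 and 18.6 RPM in Input (2.91, adjusted p = 3.5e-27 with limma). HMS-Beagle reached 49.96 and 61.4 RPM in CG9754-IP, against 5.51 and 6.52 RPM in Input (3.01, adjusted p = 4.5e-23). The element 297 stood at 165 and 138 RPM in CG9754-IP, against 35.4 and 34.4 RPM in Input (2.08, adjusted p = 2.6e-18). In each of these the precipitates were several times the inputs, with no overlap. Gtwin (2.83), gypsy4 (2.50), HMS-Beagle2 (2.42) and rover (2.28) rose as well, with CG9754-IP means of 20.6 ± 1.65, 39.4 ± 2.45, 28.2 ± 5.06 and 46.8 ± 2.78 RPM against Input means of 2.04 ± 0.26, 6.17 ± 0.79, 4.39 ± 0.063 and 8.86 ± 1.19 RPM (SD, n = 2 each). Among the TEs of these paragraphs, gypsy, mdg1, blood and 297 passed the filter in Input alone and kept the call with it; the others were tested through their CG9754-IP level, as given above.

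Among the sense TEs tested, Quasimodo differed most between the CG9754-IP replicates, with 102.2 and 36.9 RPM in CG9754-IP against 20.2 and 18.2 RPM in Input (1.63, adjusted p = 4.1e-12 with limma). The p of Quasimodo rests on the common trend of the spread and does not measure the wide difference between its own replicates. Both precipitates were above both inputs, and the log2 change was 0.91 without replicate 1 and 2.35 without replicate 2. The LINE element Ivk also differed between replicates, at 17.9 and 11.98 RPM in CG9754-IP against 11.2 and 10.3 RPM in Input, and was not called (0.42, adjusted p = 0.160). RooA, at 12.1 and 7.50 RPM in CG9754-IP against 11.9 and 10.96 RPM in Input, was tested through its Input level and was not called either (−0.24, adjusted p = 0.486).

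Springer dominated the sense strand, at 48.6% and 51.2% of it in CG9754-IP against 44.8% and 44.5% in Input. Sense springer measured 9215 and 9319 RPM in CG9754-IP, against 5461 and 5509 RPM in Input (0.76, SE 0.026, adjusted p = 1.3e-50 with limma). Sense copia lay at 2415 and 2131 RPM in CG9754-IP, against 1579 and 1640 RPM in Input (0.49, SE 0.059, adjusted p = 7.1e-13). These 2 TEs were the ones called higher on both strands. Among other abundant sense TEs, gypsy3 reached 446 and 508 RPM in CG9754-IP, against 259.8 and 234 RPM in Input (0.95, adjusted p = 9.5e-10), and gypsy6 stood at 283 and 350.0 RPM in CG9754-IP, against 150.5 and 146 RPM in Input (1.08, adjusted p = 1.7e-09). The LINE elements F-element (0.88, adjusted p = 4.2e-07) and Doc (0.64, adjusted p = 6.6e-05) rose, the call of Doc being lost without either 1 of the Input libraries (adjusted p = 0.127 and 0.0525). Circe (−0.17, adjusted p = 0.222; 0.013 at equal TE totals) and roo, at 368 and 320 RPM in CG9754-IP against 316 and 334 RPM in Input (0.08, adjusted p = 0.688), were not called.

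The sense falls were fewer and were led by the invader elements. Invader2 measured 26.0 and 19.1 RPM in CG9754-IP, against 79.5 and 84.6 RPM in Input (−1.83, SE 0.20, adjusted p = 1.0e-14 with limma). Invader3 lay at 50.3 and 34.9 RPM in CG9754-IP, against 103.5 and 103.5 RPM in Input (−1.28, SE 0.19, adjusted p = 2.6e-09). The LTR retrotransposon Transpac reached 446 and 331 RPM in CG9754-IP, against 660.2 and 666 RPM in Input (−0.78, SE 0.12, adjusted p = 2.4e-09). Their precipitates were all below both inputs, and these 3 calls were kept without any 1 library and after rescaling.

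Weaker sense falls depended on single libraries. Accord2, at 10.9 and 5.43 RPM in CG9754-IP against 16.9 and 15.3 RPM in Input, had a log2 change of −0.97 (adjusted p = 9.3e-04 with limma), which was −1.41 without CG9754-IP replicate 1 and −0.53 without replicate 2. Its CG9754-IP mean was under 10 RPM, so it was tested through its Input level and had to be lower. The DNA transposon hopper, at 90.5 and 58.9 RPM in CG9754-IP against 104 and 117 RPM in Input, had −0.59 (adjusted p = 0.00390), with −0.90 without replicate 1 and −0.29 without replicate 2. The element 1731, which rose on the antisense strand, had 137 and 120 RPM of sense small RNAs in CG9754-IP, against 194 and 202 RPM in Input (−0.62, adjusted p = 9.2e-04). BS (−0.55, adjusted p = 0.00681), diver (−0.51, adjusted p = 0.0115) and gypsy12 (−0.40, adjusted p = 0.0186) were also lower. All 6 calls were lost without either 1 of the Input libraries, and those of diver and gypsy12 also at equal TE totals.

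**Figure D4:**
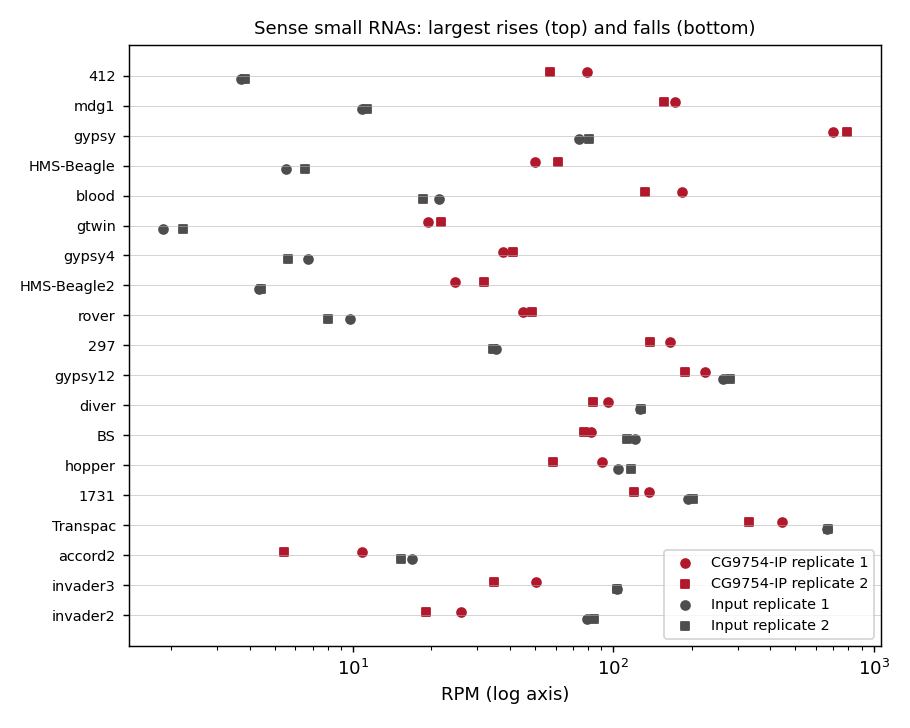
Sense small RNA levels (RPM, log axis) of the TEs with the largest called rises (top) and falls (bottom), with 1 marker for each of the 2 CG9754-IP and 2 Input libraries. The 412 element, mdg1 and gtwin stand farthest to the right of their Input markers, and invader2 and invader3 farthest to the left.

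By list, sense rises were most frequent among the gypsy-group and the mdg1-related elements. Of 9 tested members of the gypsy-group list 8 rose and 1 fell (Transpac), at a median of 2.08 on the log2 scale against 0.34 over all TEs tested. As 3 of them passed the filter through CG9754-IP alone, the whole list is given as well. Of its 15 members in the table, 13 were above Input in both precipitates and 1 below, where 41.9% and 20.2% of all TEs were. Of 7 tested members of the mdg1 and mdg3 list 6 rose, 412 through the filter among them, and 0 fell (median 1.80), mdg3 being the one without a call (0.02, adjusted p = 0.939). The gypsy-group elements made up 59.0% ± 1.66 of the sense strand in CG9754-IP and 51.8% ± 0.16 in Input (SD, n = 2 each), most of it springer.

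The counts of the other lists stand against 48.1% higher and 16.7% lower over all TEs tested, including those that had to be higher. Of 4 numbered gypsy elements 3 rose, gypsy4 through the filter among them, and 1 fell (gypsy12, median 1.01). Of 5 tested members of the invader and accord2 list, 0 rose and 3 fell (median −0.97), accord2 through the filter, and of 5 tested BEL/Pao elements 0 rose and 1 fell (diver, median 0.08). Of 9 LINE elements outside the telomeric list 4 rose and 1 fell (BS, median 0.42). Of 7 DNA transposons and foldback elements 1 rose (FB, through the filter) and 1 fell (hopper, median 0.08). None of the 5 telomeric elements was tested, and their sense levels were at most 11.3 RPM in every library. TART-C stood at 9.83 and 11.1 RPM in CG9754-IP, against 1.59 and 1.31 RPM in Input, while HeT-A measured 5.78 and 5.03 RPM in CG9754-IP, against 4.93 and 4.57 RPM in Input. Sense ZAM, at 9.79 and 10.4 RPM in CG9754-IP against 1.27 and 0.848 RPM in Input, and sense Idefix, at 11.9 and 13.8 RPM in CG9754-IP against 1.17 and 1.501 RPM in Input, were below the filter and did not overlap between the groups.

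The strand ratio of a TE compares sense and antisense reads within a library and does not depend on how the library was scaled, except near the pseudocount of 1 RPM. The log2 ratio of sense to antisense was tested in 88 TEs with at least 10 RPM on both strands together. Limma called 57 (64.8%), 43 higher (48.9%) and 14 lower (15.9%) in CG9754-IP, with a median change of 0.50. The groups did not overlap for 58 of the 88 above Input (65.9%) and 18 below (20.5%). Without either 1 of the Input libraries the calls were 27 and 25.

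Mdg1 had a sense share of 1.19% and 1.25% in CG9754-IP, against 0.0531% and 0.0557% in Input, a change of 4.39 in the log2 ratio (adjusted p = 5.8e-05 with limma). For gypsy the share was 4.35% and 3.99% in CG9754-IP, against 0.558% and 0.617% in Input (2.86). For gtwin it was 0.0654% and 0.0683% in CG9754-IP, against 0.00611% and 0.00746% in Input (2.80). In all 3 the share stayed small while both precipitates lay well above both inputs. The other rises at the top of the ranking were those of 412 (4.28), Idefix (3.34), rover (3.17) and HMS-Beagle (2.95). The 3 tested telomeric elements rose as well, TART-C by 2.44, TART-B by 1.48 and TART-A by 1.05, although none was called on the antisense strand.

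Of the 14 falls in the strand ratio, 13 were those of TEs with at least 50% sense small RNAs in Piwi-IP, and the other was that of Dsim_ninja (−1.02). Copia had a sense share of 84.2% and 78.3% in CG9754-IP, against 93.9% and 93.9% in Input (log2 change −1.80, adjusted p = 0.00277 with limma). Springer had 82.9% and 78.0% in CG9754-IP, against 90.9% and 90.5% in Input (−1.24, adjusted p = 0.00596). INE-1, a short DNA element whose family also goes by the name DNAREP1, had 92.5% and 92.3% in CG9754-IP, against 97.97% and 98.6% in Input (−1.89, adjusted p = 6.2e-04). The table lists DNAREP1 apart (−1.57), and both entries may share reads. Invader2 had the largest fall but an uneven pair, with 18.03% and 37.4% in CG9754-IP against 62.9% and 62.2% in Input (−2.16, adjusted p = 0.0186). Invader3 (−1.37), 1731 (−1.34) and Transpac (−1.26) fell too.

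**Figure D5:**
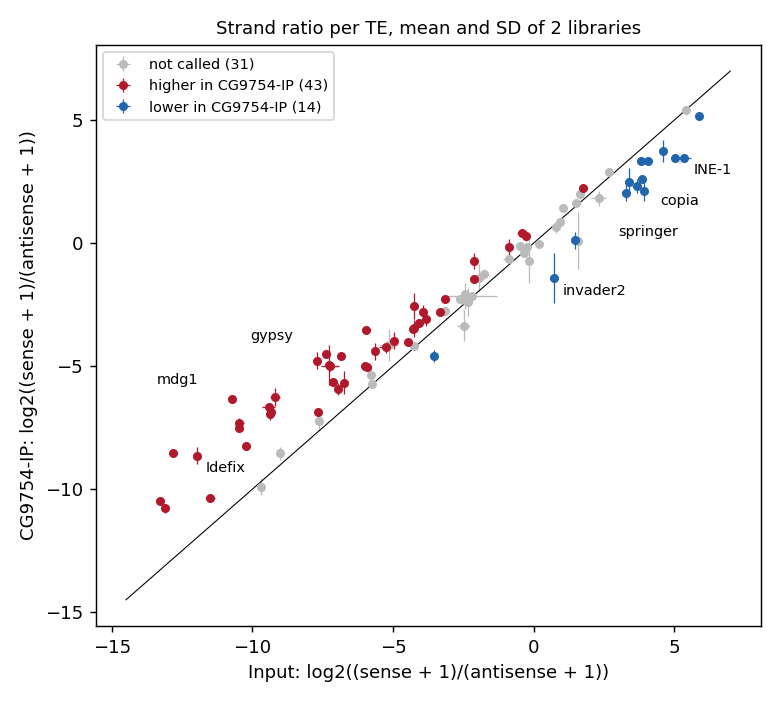
Log2((sense + 1)/(antisense + 1)) in CG9754-IP (y axis) against Input (x axis) for the 88 TEs tested, each point the mean of 2 libraries with bars for the SD, and the diagonal marking equal ratios. Most TEs with mainly antisense small RNAs, on the left, lie above the diagonal (34 of 41 with under 5% sense in Piwi-IP were called higher and 1 lower). Some of them had sense levels near the pseudocount. Of 26 with mainly sense small RNAs, on the right, 13 were called lower and 2 higher.

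The calls of the strand ratio mostly followed the strand that dominates a TE. To describe this with libraries outside the comparison, the TEs were divided by their sense share in Piwi-IP, a division chosen after the data had been seen. Of 41 TEs with under 5% sense in Piwi-IP, 34 were called higher and 1 lower (Dsim_ninja), with a median change of 1.25. Some of these had sense levels near the pseudocount, where the ratio mainly reflects the antisense level. Fw3 was called higher with 0.115 and 0 RPM of sense in CG9754-IP, against 0 and 0 RPM in Input. Dsim_ninja had 0.650 and 0.453 RPM of sense in CG9754-IP, against 0.954 and 1.11 RPM in Input. A TE with sense near 0 in Input could be called lower only through an antisense rise. Of 21 TEs with 5% to 50% sense, 7 were called higher and 0 lower, with a median of 0.35. Of 26 TEs with at least 50% sense, 2 were called higher (Cr1a and FB) and 13 lower, with a median of −0.60. The background over all 88 TEs was 48.9% higher and 15.9% lower.

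Summed over the TEs of each division, the minor strand was larger in CG9754-IP than in Input at both ends. The mainly antisense TEs had 1.58% and 1.56% sense small RNAs in CG9754-IP, against 0.358% and 0.362% in Input, with 0.322% and 0.328% in Piwi-IP. Their sense sum was 2720.1 and 2589 RPM in CG9754-IP, against 725 and 732 RPM in Input, while their antisense sum was 168954 and 162839 RPM in CG9754-IP, against 201643 and 201268 RPM in Input. The mainly sense TEs had 82.9% and 78.9% sense small RNAs in CG9754-IP, against 90.4% and 90.2% in Input. Their antisense sum was 2946 and 3685 RPM in CG9754-IP, against 1076 and 1116 RPM in Input, and springer made up most of it in both groups. Springer gained 1707 RPM of antisense small RNAs in the mean, and copia rose as given above. Nearly all of the difference in this sum was that of springer and copia, so it does not describe the other mainly sense TEs. Neither division overlapped between CG9754-IP and Input in these values. No mock precipitate was used here, so what a precipitate without CG9754 would hold was not tested.

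Set side by side, the calls on the 2 strands coincided in few TEs. Of the 17 TEs that fell on the antisense strand, 6 were not tested on the sense strand. Among the others 8 rose, 0 fell and 3 were not called. The rising 412, rover and gypsy4 were tested through their CG9754-IP level and so had to be higher. Over all TEs tested on the sense strand, 48.1% rose and 16.7% fell. Of the 7 TEs that rose on the antisense strand, 3 were not tested on the sense strand. Among the others 2 rose (copia and springer), 1 fell (1731) and 1 was not called. A further 16 TEs rose on the sense strand with an antisense level that was tested and not called, gypsy, blood and 297 among them. FB, gtwin, HMS-Beagle and HMS-Beagle2 were among these too and were tested through their CG9754-IP level. Both strands come from the same libraries, so these counts are a description.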

How the data were processed

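The TE table gives 124 TEs on both strands and its header names no unit. In each library all values are whole multiples of the same step (within 0.02 reads), so the deposited values were taken as RPM that the authors scaled to 1000000 reads, and the step gives the library totals. Per the submitters' processing notes, the build was dm3 and the tools included bedtools 2.16.1, SAMtools 0.1.16, Bowtie 0.12.7 and cutadapt 1.0, without their roles. Mismatches, size range and how reads that match several TEs were counted are not given in the sources used here. Related elements may therefore share reads.

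From these values, log2(RPM + 1) was compared in the 4 libraries with limma 3.58.1 in R 4.3.3 (lmFit, eBayes with a trend), with group as the only term. The strand ratio was fitted likewise. The fits were also run on simulated data with the same spread for all TEs of a group, unlike the uneven spread seen here. No conclusion on the calls is drawn from that run. Sums were compared by exact permutation (scipy 1.17.1, Python 3.11.15). TEs were named by rule: on each strand the 10 largest called rises and the 10 largest called falls without overlap, the 10 most abundant TEs of CG9754-IP, the 5 largest replicate differences, and springer, copia, I-element, roo, HeT-A, Idefix, 297, gtwin, mdg1, ZAM and gypsy. For the ratio these were the 5 largest rises and falls. Further TEs identify small counts or describe the telomeric elements and the strand balance, and were chosen after their values were seen. The TEs, lists and tests were chosen with earlier results of these data known. Lists are described by counts and medians, with no test. Alternatives were pseudocounts of 0.1 and 10, other filters, a fit with Piwi-IP, group weights, a replicate block, each library left out and 2 rescalings, to the same TE total and by the median ratio over the TEs. The piRNA cluster table of 5 knockdown libraries and the samples of mRNA-seq (17) and ChIP-seq (18) were not analysed here.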

Additional observations from a re-analysis of the deposited data

How the results depend on the processing

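With 2 libraries a group, the calls depended on the spread each fit used. The antisense strand had 24 calls as reported (7 higher, 17 lower), 37 (11 and 26) in a fit of 6 libraries with Piwi-IP, and 0 to 61 (0 to 19 higher, 0 to 42 lower) with 1 library left out; it had 2 higher with a minimum of 100 RPM, and 12 higher and 10 lower with the same TE total. Without an Input library the spread comes from the CG9754-IP pair alone. The sense strand had 35 calls (26 higher, 9 lower), 16 (11 and 5) with a minimum of 100 RPM, and 22 to 40 (19 to 30 higher, 3 to 14 lower) with 1 library left out. The strand ratio had 57 calls and 25 to 69 (21 to 51 higher, 4 to 18 lower) with 1 left out. Pseudocounts of 0.1 and 10, no filter, group weights and the median ratio kept the counts of calls within 1.5 times on each strand. The TEs called were not all the same. With no filter, 17 of the 24 antisense calls and 26 of the 35 sense calls were kept. The differences in sums and in the antisense percent kept their sign with each library left out.

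Signs turned for TEs that were not called. With each library left out, the antisense log2 change ran between −0.020 and 0.082 for gtwin, −1.10 and 0.11 for GATE, −0.60 and 1.25 for invader2 and −0.36 and 0.64 for roo, and the sense one between −0.024 and 0.18 for roo and −0.55 and 0.073 for rooA. With the same TE total, gypsy2 turned to 0.14 on the antisense and Circe to 0.013 on the sense strand. The cause was not tested.

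Of the calls of named TEs, 28 were lost without either 1 of the Input libraries, 18 with the block and 10 with no filter. The 10 were antisense 1731, Rt1b, Quasimodo, mdg1 and 412, sense accord2, hopper, gypsy12 and Quasimodo, and the ratio of invader2. Rt1b was lost with group weights too, and antisense 412 with the minimum on Input alone.

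With a replicate block, 4 antisense TEs were called (2 higher, 2 lower), 31 sense TEs and 56 ratios. The log2 difference between replicates 1 and 2 was correlated across TEs between CG9754-IP and Input. The Pearson r was 0.016 on the antisense strand (74 TEs), 0.11 on the sense strand (54 TEs) and 0.23 in the ratio (88 TEs). The labels do not pair same-numbered libraries, and whether they share a culture or day was not tested. The planned count test on reads recovered from the RPM values was not run, because its unit check needed more low values per library than were present. The library totals, the Wilson intervals and the chi-square values rest on reads recovered in the same way. Below 1 RPM in both groups, 11 antisense and 21 sense TEs gave no usable comparison.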
